A study of Mus musculus with 18 samples.

Results

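The heat shock proteins and DnaJ proteins of the mouse were followed here in 2 regions, oculomotor nucleus and cervical spinal cord, in mice that model amyotrophic lateral sclerosis (ALS), a disease in which motor neurons die. Members were all probe sets on the array whose single annotated gene symbol begins with Hspa, Hspb, Hspd, Hspe or Hsph and a number, with Hsp90, or with Dnaja, Dnajb or Dnajc and a number. The rule rests on gene names and takes in no measured value, though it was chosen with earlier results of these data known. It gave 121 probe sets of 60 genes, out of 22626 probe sets of 12393 genes, and 94 of them, for 49 genes, were bright enough to be tested. By family the tested probe sets were 34 of DnaJ C, 20 of Hsp70, 15 of DnaJ B, 9 of DnaJ A, 6 of the small heat shock proteins, 5 of Hsp90, 3 of the chaperonin and 2 of Hsp110. By the place where the protein works, 48 belonged to the cytosol, 19 to the endoplasmic reticulum (ER), 12 to mitochondria, 6 to vesicles and endosomes, 2 to the nucleus, and 7 were left without a place.

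Hsp70 proteins bind unfolded stretches of other proteins and let them go again in a cycle driven by ATP. DnaJ proteins deliver the client and start that cycle, and nucleotide exchange factors such as the Hsp110 proteins end it. Small heat shock proteins need no ATP and hold unfolding proteins in a state from which the Hsp70 machine can recover them, while Hsp90 finishes the folding of kinases and receptors. Each compartment has its own set: Hspa5 with Dnajb11, Dnajc3 and Hsp90b1 in the ER, Hspa9 with the Hspd1 and Hspe1 chaperonin in mitochondria, and Dnajc5 on synaptic vesicles. The factor Hsf1 drives the cytosolic genes under heat and proteotoxic stress, and the unfolded protein response drives those of the ER. Motor neurons are known for a high threshold for the Hsf1 response, and misfolded protein collects in them in ALS.

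The oculomotor nucleus, whose motor neurons move the eyes and are spared in ALS, was set against the cervical spinal cord, whose motor neurons are affected. The groups were the oculomotor nucleus of mutants of 10 weeks, of mutants of 6 weeks and of controls of 10 weeks, and the cervical spinal cord of the same 3 conditions, with 3 arrays each. Every sample is described as an ALS model, the sources used here name neither the mutation, the strain, the sex nor any pooling of animals, and no control of 6 weeks was analysed here. Replicates are called independent in the study's design, but no label ties an array to an animal, so the p-values speak of the scatter among these samples. Control spinal cord replicate 1 was left out, since its signals correlated with those of the other arrays at only 0.0104 to 0.0143 across probe sets, so that its group held 2 arrays and 17 arrays were used.

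Across these 17 arrays pairwise correlations ran from 0.957 to 0.985, and how precise a value can be depends on how few arrays there are. The signals are those of Affymetrix Microarray Suite 5.0 (MAS5), on a linear scale with a trimmed mean of about 500.1 per array, and they can be compared between arrays for 1 probe set but not between probe sets. Log2 fold changes were taken after 25 was added to each signal, are oculomotor nucleus over spinal cord, mutant over control or 10 weeks over 6 weeks, and carry their standard error (SE). A probe set is called where limma, a linear model fitted to all 13575 tested probe sets, gave an adjusted p under 0.05. Regional markers separated midbrain tissue from spinal cord. Markers of the midbrain summed to 3788 to 5211 in the oculomotor nucleus and 305 to 441 in spinal cord, and spinal Hox genes to 103 to 249 and 4337 to 5348. Markers of motor and cholinergic neurons summed to 509 to 644 in the oculomotor nucleus, against 1894 to 2459 in spinal cord. Isl1, Mnx1 and Phox2a, which mark motor neurons, were too dim to be tested. Phox2a read 33.4 to 69.7 in the oculomotor nucleus and 38.5 to 84.6 in spinal cord. The markers thus place these samples in the midbrain but do not mark the oculomotor nucleus itself. Pituitary hormone genes summed to between 595.5 and 23562 in the oculomotor nucleus, against 461 to 559 in spinal cord, with the highest sums on mutant 10-week replicate 2 and control replicate 3.

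Between regions the 2 small heat shock proteins Hspb1 and Hspb8 were lower in the oculomotor nucleus in all 3 conditions. Of 23 tested DnaJ probe sets of the cytosol, 11 were called higher there in the mean, by smaller amounts, and 3 lower. Of 6 probe sets of vesicles 4 were called higher, also by smaller amounts, and all 4 were of 1 gene, Dnajc5. Averaged over the 3 conditions, 34 of the 94 tested members were called, 23 higher and 11 lower. That is 36.2% of them, beside 37.7% of all tested probe sets, with 20% higher and 17.7% lower, so the share of members called was near the background. The median log2 fold change was 0.08 over the members and 0.02 over all tested probe sets. By family, 8 of 15 DnaJ B probe sets were called higher and 1 lower, 9 of 34 DnaJ C higher and 3 lower, 3 of 9 DnaJ A higher and 2 lower, 2 of 5 Hsp90 higher, and 1 of 20 Hsp70 higher. Of the 6 small heat shock probe sets 5 were called, all lower, and the 3 chaperonin and 2 Hsp110 probe sets gave no call. By compartment, 21 of 48 cytosolic probe sets were called (13 higher, 8 lower), 4 of 19 of the ER (1 higher, 3 lower) and 1 of 12 of mitochondria (higher). The others were 4 of 6 of vesicles (all higher, all of Dnajc5), 4 of 7 of those without a place (all higher) and 0 of 2 of the nucleus.

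In mutants of 6 weeks 18 members were called between regions, 11 higher and 7 lower in the oculomotor nucleus, which is 19.1% beside a background of 23.9% (12.2% higher and 11.7% lower). In controls of 10 weeks there were 9 calls, 4 higher and 5 lower, or 9.57% beside 13.6% (6.62% higher and 6.94% lower). In mutants of 10 weeks there were again 18, 11 higher and 7 lower, or 19.1% beside 19.3% (9.3% higher and 9.99% lower). Centring each array on its median turned the split at 6 weeks to 8 higher and 9 lower and that in controls to 1 and 5, and quantile normalization gave 2 and 5 in controls. Over all tested probe sets quantile normalization called 2984, 1834 and 2732 in the 3 comparisons, beside 3239, 1841 and 2619 in the main fit. Counts of the other alternative fits stand here without that background, so a shift in them is not shown to be particular to the members. With control spinal cord replicate 1 put back, the 3 comparisons and their mean called 3, 0, 2 and 9 members. Without the 2 oculomotor arrays with high pituitary hormone signals they called 20, 5, 11 and 29. A fit to the 2 groups of 10-week mutants alone turned their split to 5 higher and 8 lower. In controls the count was 5 without oculomotor replicate 2 and 4 without spinal cord replicate 2, and in mutants of 10 weeks 10 (3 higher and 7 lower) without oculomotor replicate 1 and 9 (3 higher and 6 lower) without spinal cord replicate 1. Under the rule of the study's design, in which every pairwise comparison must go 1 way with a mean ratio over 2-fold, applied here to the signals alone, 4 members were lower in each condition and 0 higher. All were probe sets of Hspb1 and Hspb8. Of all tested probe sets 1.74% were lower and 1.26% higher by it in mutants of 6 weeks, 1.32% and 1.13% in controls, and 1.38% and 1.04% in mutants of 10 weeks. These are tissue samples, in which fewer cells of a type and less RNA per cell cannot be told apart.

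**Figure D1:**
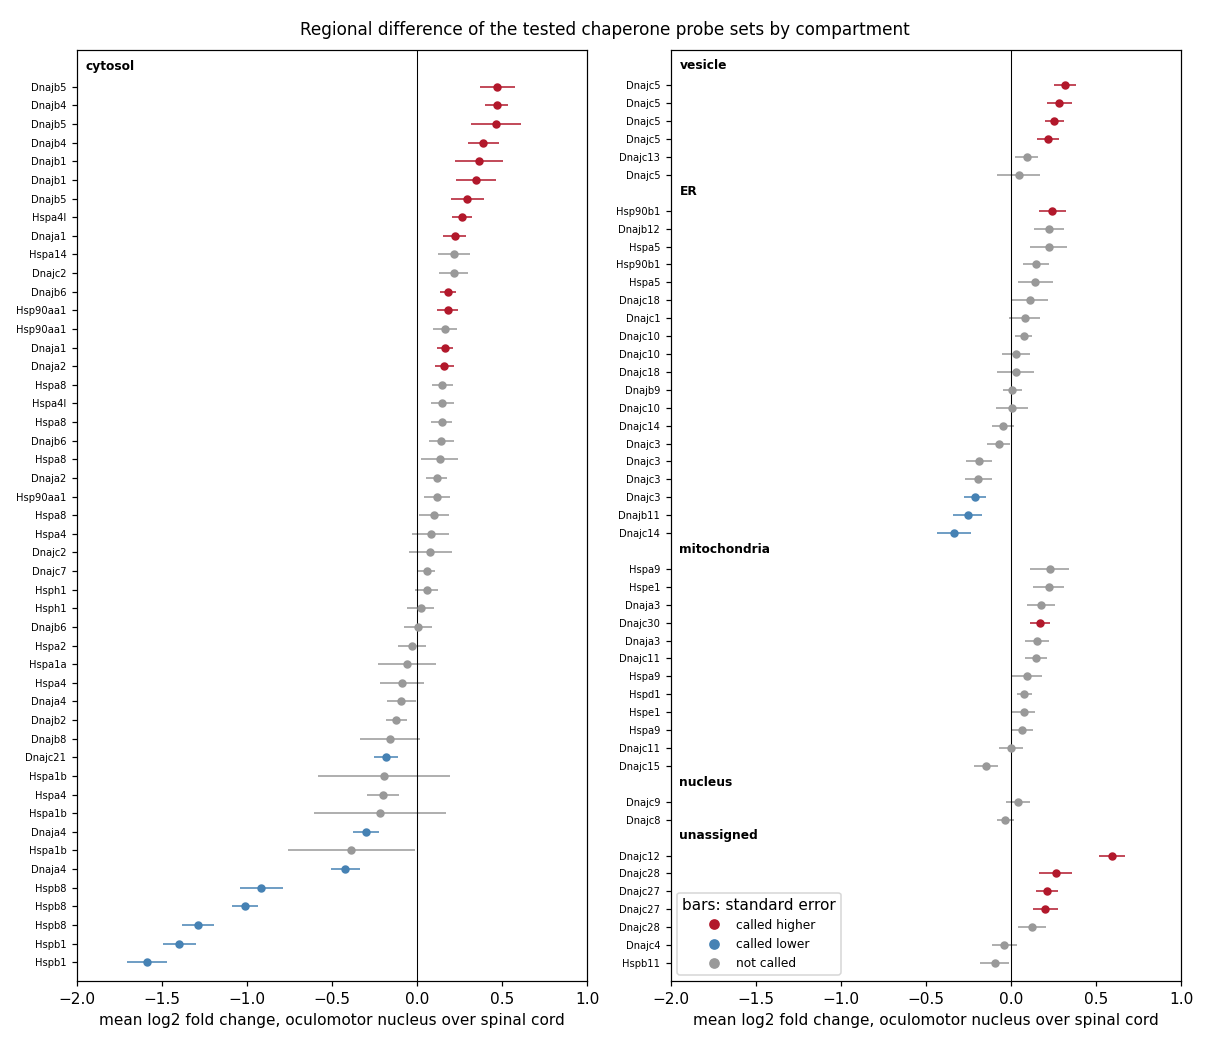
Mean log2 fold change of oculomotor nucleus over spinal cord (horizontal axis) for each of the 94 tested chaperone probe sets, one line each, sorted within compartment; points are estimates over the 3 conditions and bars are standard errors. The 5 Hspb1 and Hspb8 probe sets lie between -1.59 and -0.92 at the foot of the cytosol panel, and the largest positive value is Dnajc12 at 0.59.

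Hspb1 encodes a small heat shock protein that binds actin and unfolding proteins, and in people mutations of the gene cause an inherited motor neuropathy. 1422943_a_at of Hspb1 had signals of 1072, 1024 and 1231 in the oculomotor nucleus of 10-week mutants, 1023, 1447 and 1052 in that of 6-week mutants and 1457, 827 and 1134 in that of controls. Against these, 1422943_a_at had 3549.6, 3038 and 3354 in the spinal cord of 10-week mutants, 2900.2, 3343 and 3472 in that of 6-week mutants and 2241 and 2885 in that of controls. Every oculomotor array lay below every spinal cord array. The log2 fold change was -1.46 ± 0.17 in mutants of 6 weeks, -1.18 ± 0.19 in controls and -1.56 ± 0.17 in mutants of 10 weeks, and the mean of -1.40 ± 0.10 was called in limma (adjusted p = 2.57e-09). The second Hspb1 probe set, 1425964_x_at, which by its suffix may hybridise to related transcripts, showed the same order. 1425964_x_at had signals of 371, 384 and 547 in the oculomotor nucleus of 10-week mutants, 379, 583 and 575 in that of 6-week mutants and 616, 361 and 327 in that of controls. Against these, 1425964_x_at had 1597, 1431 and 1501 in the spinal cord of 10-week mutants, 1379, 1676 and 1704 in that of 6-week mutants and 1071 and 1228 in that of controls. The regions did not overlap here either, and the 3 regional log2 fold changes were -1.60, -1.40 and -1.76, with a mean of -1.59 ± 0.12 (adjusted p = 4.88e-09 in limma).

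Hspb8 is the small heat shock protein that works with the co-chaperone Bag3 to send misfolded proteins to autophagy, and its mutations too cause a motor neuropathy in people. 1417013_at of Hspb8 had signals of 341, 376 and 279 in the oculomotor nucleus of 10-week mutants, 246, 402 and 253 in that of 6-week mutants and 369, 328 and 388 in that of controls. Against these, 1417013_at had 935, 762 and 762 in the spinal cord of 10-week mutants, 766, 888 and 778 in that of 6-week mutants and 844 and 922 in that of controls. The mean log2 fold change was -1.29 ± 0.09 (adjusted p = 2.84e-09 in limma), with -1.39, -1.23 and -1.24 in mutants of 6 weeks, controls and mutants of 10 weeks. 1417014_at of Hspb8 had signals of 256, 241 and 249 in the oculomotor nucleus of 10-week mutants, 276, 246 and 196 in that of 6-week mutants and 239.5, 240.4 and 252 in that of controls. Against these, 1417014_at had 612, 578 and 459 in the spinal cord of 10-week mutants, 401, 481 and 408 in that of 6-week mutants and 574 and 600.1 in that of controls. All 9 oculomotor signals lay below all 8 spinal cord signals. 1456434_x_at of Hspb8 had signals of 252, 163 and 190.5 in the oculomotor nucleus of 10-week mutants, 194, 191 and 83.9 in that of 6-week mutants and 168, 137 and 145 in that of controls. Against these, 1456434_x_at had 396, 349 and 328 in the spinal cord of 10-week mutants, 389.6, 338 and 353 in that of 6-week mutants and 277 and 294 in that of controls. Here too no signal of one region reached into the other, and mutant 6-week oculomotor replicate 3 was the lowest of its group. The mean log2 fold changes of these probe sets were -1.01 ± 0.08 and -0.92 ± 0.13, both called (adjusted p = 6.92e-09 and 1.13e-05 in limma).

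These 5 probe sets of Hspb1 and Hspb8 were the members called lower in all 3 regional comparisons, beside 4.4% of all tested probe sets, and no member was called higher in all 3, beside 3.07%. They were also the 5 members whose oculomotor signals all lay below all spinal cord signals, a separation that 4.88% of tested probe sets showed. Within mutants of 6 weeks such a separation was found for 13 members below and 28 above (16.9% and 20.5% of all tested probe sets), within controls for 15 and 23 (22% and 23.9%) and within mutants of 10 weeks for 13 and 21 (18.2% and 17.8%). In the mean regional difference each of the 5 kept its call in every alternative run, also with all 18 arrays and without any one array. Within single conditions Hspb8 1456434_x_at was less firm: it lost its call in 6 of 14 alternatives in controls, where adjusted p reached 0.119 without spinal cord replicate 3, and in 4 of 15 in mutants of 10 weeks, among them without oculomotor replicate 2 or spinal cord replicate 1. The other 4 probe sets lost calls in single conditions only with all 18 arrays. Neither gene was called between genotypes or ages, where the log2 fold changes of the 5 probe sets ran from -0.12 to 0.36 for genotype in the oculomotor nucleus and from -0.11 to 0.39 in spinal cord. Of the other small heat shock genes, Hspb11, whose protein is part of the transport machine of cilia, had a mean regional value of -0.10 ± 0.08 and was not called, and Hspb2, Hspb3 and Hspb7, best known from muscle, were too dim to be tested. Bag3, the partner of Hspb8, was named after its values were seen. It was lower in the oculomotor nucleus, at -0.26 ± 0.10 (adjusted p = 0.0474 in limma).

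Markers of several cell types were lower in the oculomotor nucleus together with Hspb1 and Hspb8. Of the marker genes tested, 6 of 6 of meninges and fibroblasts were called lower in the mean regional difference, with summed signals of 1222 to 1820 in the oculomotor nucleus against 3792 to 7656 in spinal cord. Of 6 astrocyte genes 3 were lower and 1 higher (sums 10674 to 12286 against 19111 to 23268), of 3 tested motor neuron and cholinergic genes 3 were lower, of 5 tested microglia genes 4 were lower (3432 to 4162 against 4875 to 7580), and of 7 oligodendrocyte genes 7 were lower (31948 to 55888 against 48606 to 66774). Of 5 neuronal genes 1 was higher and 2 lower (26829 to 31076 against 25925 to 35229). A sum gives most weight to the brightest probe sets. Among the astrocyte genes Gfap alone read 1126 to 2549 in the oculomotor nucleus against 7481 to 11156 in spinal cord. Slc1a3 went the other way, with 554 to 1092 against 368 to 483. None of these markers was at 0 on any array, and their part in the regional results was not tested.

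**Figure D2:**
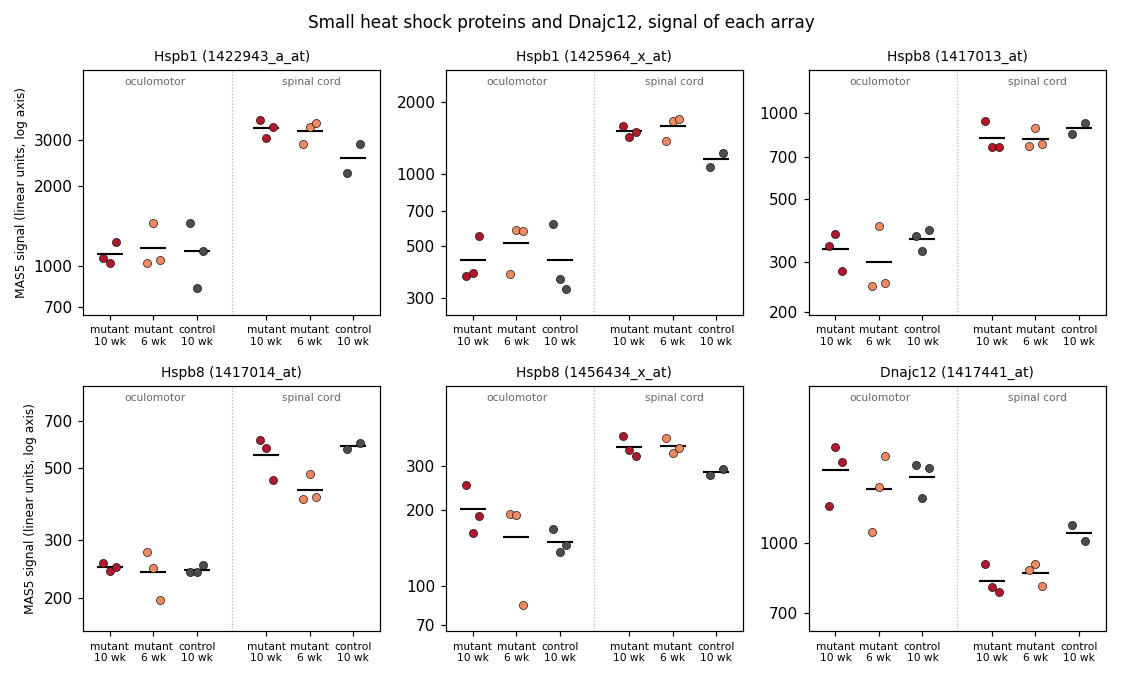
MAS5 signal of each array (vertical axes, log scale) for the Hspb1 and Hspb8 probe sets and for Dnajc12; each point is an array, and bars are group means of the signals. In the 5 Hspb1 and Hspb8 panels every oculomotor point lies below every spinal cord point, while in the Dnajc12 panel most oculomotor points lie above the spinal cord points.

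Hsf1 binds heat shock elements, inverted repeats of GAA. In the promoter windows of RefSeq (250 bases before to 50 after each start, assembly GRCm38.p6), 49 of the 60 member genes had a window. The paired element GAANNTTC or TTCNNGAA stood in the windows of 14 of the 49 (28.6%), beside 17% of 27025 genes with a window, and the triple element GAANNTTCNNGAA or TTCNNGAANNTTC, which contains the pair, in 4 (8.16%), beside 0.662%. The 4 with the triple element were Dnajb6, Hspd1, Hspe1 and Hsph1. Sequences follow for both small heat shock genes that were lower in the oculomotor nucleus, for Hspa1b, the member whose signals varied most within groups, and for Hspe1 as the triple element of a gene with no call. Capitals mark the element, and each sequence runs 5′ to 3′ on the strand of the gene.
Hspb1: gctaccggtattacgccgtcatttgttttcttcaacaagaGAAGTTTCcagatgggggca
Hspb8: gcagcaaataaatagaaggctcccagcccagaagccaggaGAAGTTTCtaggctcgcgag
Hspa1b: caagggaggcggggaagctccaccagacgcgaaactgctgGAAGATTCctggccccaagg
Hspe1: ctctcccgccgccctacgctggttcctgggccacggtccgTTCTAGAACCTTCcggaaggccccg
The windows are chr5:135887762-135887821 (plus strand) for Hspb1, chr5:116422843-116422902 (minus) for Hspb8, chr17:34959323-34959382 (minus) for Hspa1b and chr1:55088019-55088083 (plus) for Hspe1. The element begins at base -117 from the start of transcription for Hspb1, at 3 for Hspb8, at -104 for Hspa1b and at -89 for Hspe1. Hspb1 and Hspb8 share the 8 letters GAAGTTTC. The Hspb1 and Hspe1 windows held 2 matches, of which 1 is marked. A match describes these letters and was not tested as a site.

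Hspa1a and Hspa1b encode the stress-inducible Hsp70, which is low in unstressed tissue and switched on by heat or injury. The genes are near copies, so their probe sets may share transcripts. Hspa1b varied more between arrays of 1 group than nearly any other gene. 1427126_at of Hspa1b had signals of 333, 196 and 636 in the oculomotor nucleus of 10-week mutants, 154, 320.5 and 211 in that of 6-week mutants and 675, 97.9 and 405 in that of controls. Against these, 1427126_at had 238, 202 and 965 in the spinal cord of 10-week mutants, 202, 682 and 520.3 in that of 6-week mutants and 108 and 507 in that of controls. Arrays of 1 group stood far apart: on this probe set control oculomotor replicate 1 was 6.89 times replicate 2, and 10-week mutant spinal cord replicate 3 lay far above the other 2 of its group. The residual SD on the log2 scale was 1.01, 1.01 and 0.97 for its 3 probe sets, ranks 6 to 8 of 13575, below 3 probe sets of Gh, the growth hormone gene, and those of Pomc and Zdhhc6. The median of all tested probe sets was 0.166 and that of the members 0.164. In each of the 6 groups the 3 probe sets of Hspa1b put the arrays in the same order. Within each condition the replicate numbers used also stood in the same order in both regions on 1427126_at, which was not tested. Immediate early genes, which rise within minutes of disturbance, summed to 2783 to 5188 in the oculomotor nucleus and 2690 to 4043 in spinal cord, and their part in the spread was not tested.

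No regional, genotype or age difference of Hspa1b was called. At 6 weeks its probe sets had -0.86 ± 0.65, -0.85 ± 0.64 and -1.01 ± 0.62 between regions, with standard errors too wide for a call (adjusted p = 0.362, 0.368 and 0.256 in limma). That fit took the arrays of the regions as unpaired, so spread shared by same-numbered arrays would stay in these standard errors. Hspa1a, with a residual SD of 0.42, had signals of 412, 360.0 and 468 in the oculomotor nucleus of 10-week mutants, 223, 342 and 365 in that of 6-week mutants and 554, 243 and 387 in that of controls. Against these, 1452388_at had 363, 297 and 615 in the spinal cord of 10-week mutants, 374, 513 and 419 in that of 6-week mutants and 216 and 429 in that of controls. Its signals overlapped between the regions, and the mean log2 fold change was -0.06 ± 0.17. Dnajb1, the DnaJ partner that is induced along with this Hsp70, had residual SDs of 0.35 and 0.30. 1416756_at of Dnajb1 had signals of 1310.5, 1099.7 and 1443 in the oculomotor nucleus of 10-week mutants, 1280.0, 1089 and 934 in that of 6-week mutants and 1815, 902 and 1824 in that of controls. Against these, 1416756_at had 793, 1132 and 1319.9 in the spinal cord of 10-week mutants, 698, 933 and 943 in that of 6-week mutants and 843 and 1252 in that of controls. Control oculomotor replicate 2 was the lowest of its group here as for Hspa1b. Both Dnajb1 probe sets were called higher in the oculomotor nucleus, at 0.35 ± 0.12 and 0.36 ± 0.14 (adjusted p = 0.0294 and 0.0488 in limma).

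**Figure D3:**
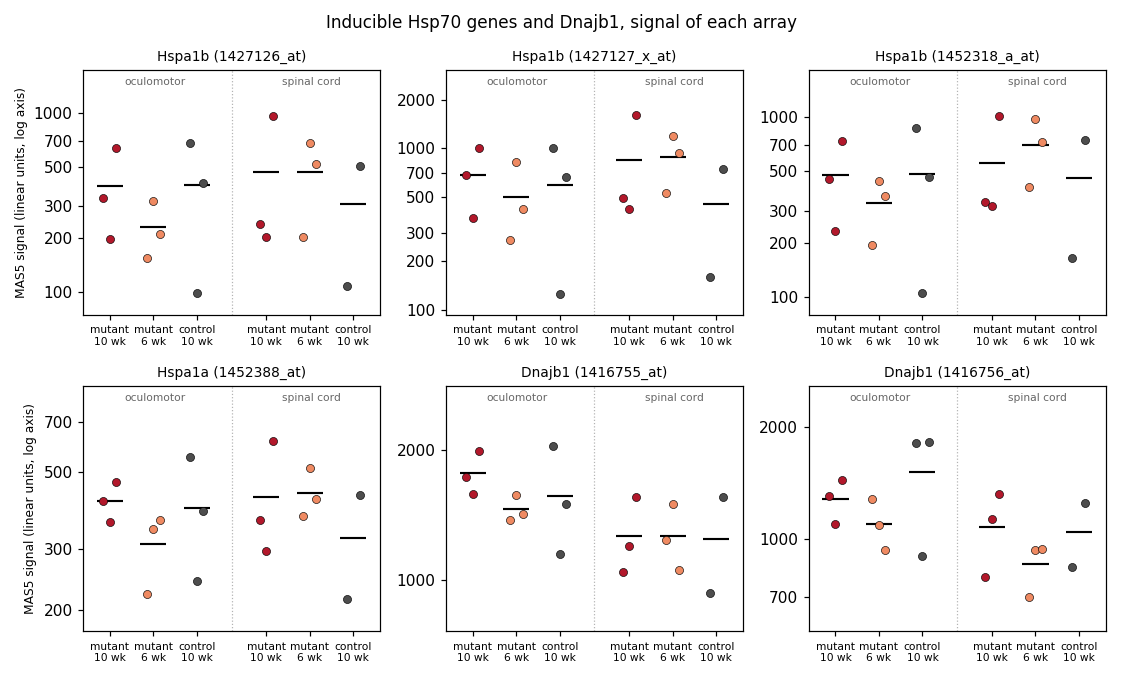
MAS5 signal of each array (vertical axes, log scale) for the 3 Hspa1b probe sets, the Hspa1a probe set and both Dnajb1 probe sets; each point is an array, and bars are group means of the signals. Points of Hspa1b spread over most of the axis within groups, with control oculomotor replicates at 675, 97.9 and 405 for 1427126_at.

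Of the other Hsp70 genes of the cytosol, Hspa8 and Hspa4 were called between regions within single conditions but not in the mean. Hspa8, the main Hsp70 of unstressed neurons, which also strips clathrin from vesicles, had mean regional values of 0.10 ± 0.09, 0.15 ± 0.06, 0.13 ± 0.11 and 0.14 ± 0.06, none of them called. At 6 weeks 1420623_x_at was called higher (0.54 ± 0.10, adjusted p = 7.65e-04 in limma) and 1455789_x_at as well (0.29 ± 0.10, adjusted p = 0.0484), while 1420622_a_at stood at 0.01. Hspa2 had -0.03 ± 0.08 and Hspa14, which sits on ribosomes, 0.22 ± 0.09. Among the exchange factors, the 3 Hspa4 probe sets had -0.20 ± 0.09, 0.08 ± 0.11 and -0.09 ± 0.13, and the 2 of Hsph1 had 0.02 ± 0.08 and 0.05 ± 0.07, with no call in the mean. Hspa4 1416147_at had values of opposite sign in mutants of the 2 ages. It stood at -0.43 ± 0.18 at 6 weeks, not called (adjusted p = 0.0900 in limma), and at 0.61 ± 0.18 at 10 weeks, called higher in the oculomotor nucleus (adjusted p = 0.0220). The change of this regional value with age was itself not called. The 10-week call was lost in 5 of 16 alternatives, and the value was 0.37 without 10-week mutant spinal cord replicate 1.

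Hspa4l, a relative of Hspa4 that also speeds nucleotide exchange, was the Hsp70 gene called in the mean regional difference. 1418253_a_at of Hspa4l had signals of 2197, 1813 and 1998 in the oculomotor nucleus of 10-week mutants, 2104, 2113 and 1901 in that of 6-week mutants and 2266, 2127 and 2341 in that of controls. Against these, 1418253_a_at had 1419, 1778 and 1582 in the spinal cord of 10-week mutants, 1735, 1987 and 1835 in that of 6-week mutants and 1694 and 1902 in that of controls. The regions overlapped on this probe set, and its mean log2 fold change was 0.26 ± 0.06 (adjusted p = 0.00197 in limma). The other Hspa4l probe set, 1449010_at, had a mean of 0.15 ± 0.07 and was called higher in mutants of 10 weeks alone of the 3 conditions (0.39 ± 0.11, adjusted p = 0.0216). With control spinal cord replicate 1 put back, several of the probe sets followed one by one lost their calls in the mean difference. They were Hspa4l 1418253_a_at, Dnajb5 1421962_at, Dnajb11 1423151_at, Hsp90aa1 1437497_a_at, both called Dnaja4 probe sets and 3 of Dnajc5. Calls of other members were not followed in this way.

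Hsp90aa1 encodes the stress-inducible Hsp90 of the cytosol. Of its 3 probe sets 1437497_a_at was called higher in the oculomotor nucleus in the mean (0.18 ± 0.06, adjusted p = 0.0295 in limma), a call lost in 10 of 26 alternatives, and the others had 0.16 ± 0.07 and 0.11 ± 0.08. In mutants of 6 weeks those 2 were called higher instead, at 0.41 ± 0.12 and 0.44 ± 0.13 (adjusted p = 0.0146 and 0.0160).

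Among the DnaJ proteins of the cytosol, 4 of the B class and 2 of the A class were higher in the oculomotor nucleus and 1 of the A class was lower. Dnajb4, a partner of Hsp70 in the cytosol, had 2 probe sets and both were called. 1451177_at of Dnajb4 had signals of 1319.6, 1403 and 1286 in the oculomotor nucleus of 10-week mutants, 988, 1333 and 1406 in that of 6-week mutants and 1285, 1419 and 1178 in that of controls. Against these, 1451177_at had 859, 852 and 939 in the spinal cord of 10-week mutants, 1002, 992 and 966 in that of 6-week mutants and 874 and 928 in that of controls. The regions overlapped only through the lowest 6-week oculomotor array. 1431734_a_at of Dnajb4 had signals of 564, 501 and 613 in the oculomotor nucleus of 10-week mutants, 436, 532 and 578 in that of 6-week mutants and 660.2, 607 and 681 in that of controls. Against these, 1431734_a_at had 339, 513 and 364 in the spinal cord of 10-week mutants, 438, 513 and 431 in that of 6-week mutants and 364 and 515 in that of controls. Here the overlap was wider, and the mean log2 fold changes were 0.47 ± 0.07 and 0.39 ± 0.09 (adjusted p = 2.24e-05 and 0.00265 in limma). Both were called in controls and in mutants of 10 weeks, and neither at 6 weeks, where they had 0.31 and 0.15. For 1431734_a_at the call was lost in 9 of 15 alternatives in controls and in 8 of 16 in mutants of 10 weeks, and the control value of 0.55 was 0.32 without spinal cord replicate 2.

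Dnajb5, another cytosolic DnaJ that is induced by heat, was called higher on all 3 of its probe sets, with means of 0.46 ± 0.15, 0.47 ± 0.10 and 0.29 ± 0.10. 1421962_at of Dnajb5 had signals of 321, 373 and 312 in the oculomotor nucleus of 10-week mutants, 370.5, 292 and 384 in that of 6-week mutants and 349, 399 and 327 in that of controls. Against these, 1421962_at had 299, 295 and 227 in the spinal cord of 10-week mutants, 211, 245 and 244 in that of 6-week mutants and 168 and 300.1 in that of controls. The regions overlapped only through the lowest oculomotor array, 6-week mutant replicate 2. Dnajb6, which keeps proteins with long glutamine tracts from clumping, had 1 of 3 tested probe sets called (1448234_at, 0.18 ± 0.05, adjusted p = 0.00770 in limma). Its signals were 2675 to 3046 (median 2753) in the oculomotor nucleus, against 2166 to 2642 (median 2545) in spinal cord, and all oculomotor arrays lay above all spinal cord arrays. That separation was found in 2 members, Dnajb6 and Dnajc5 1448850_a_at, and in 3.89% of all tested probe sets. The other Dnajb6 probe sets had 0.14 ± 0.07 and 0.00 ± 0.08. Dnajb2, a DnaJ rich in neurons that hands clients to the proteasome, had -0.12 ± 0.06 and Dnajb8 -0.16 ± 0.18, neither of them called.

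Dnaja1 and Dnaja2, the general DnaJ partners of Hspa8, were higher by small amounts. Both probe sets of Dnaja1 were called (0.22 ± 0.07 and 0.16 ± 0.05) and 1 of 2 of Dnaja2 (0.16 ± 0.06, with 0.12 ± 0.06 for the other). Dnaja4 went the other way. 1434196_at of Dnaja4 had signals of 386, 321 and 384 in the oculomotor nucleus of 10-week mutants, 320.1, 379.6 and 375 in that of 6-week mutants and 536, 393 and 418 in that of controls. Against these, 1434196_at had 478, 579 and 495 in the spinal cord of 10-week mutants, 479.6, 546 and 404 in that of 6-week mutants and 524 and 683 in that of controls. Control oculomotor replicates 1 and 3 fell within the spinal cord range, and the other 7 oculomotor arrays lay below it. 1418591_at of Dnaja4 had signals of 633, 528 and 496 in the oculomotor nucleus of 10-week mutants, 603, 487 and 599 in that of 6-week mutants and 624, 545 and 513 in that of controls. Against these, 1418591_at had 847, 749 and 848 in the spinal cord of 10-week mutants, 691, 561 and 750.0 in that of 6-week mutants and 597 and 630.5 in that of controls. The oculomotor and spinal cord ranges overlapped, and 10-week mutant oculomotor replicate 1 also lay above both control spinal cord arrays. Within 10-week mutants the regions did not overlap, at -0.54 ± 0.13. The mean log2 fold changes were -0.42 ± 0.09 and -0.30 ± 0.08 (adjusted p = 7.23e-04 and 0.00392 in limma), and the third Dnaja4 probe set had -0.09 ± 0.09 and was not called.

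Dnajc12, which binds the enzymes that hydroxylate aromatic amino acids on the way to dopamine and serotonin, had the largest positive regional value of any member. 1417441_at of Dnajc12 had signals of 1207, 1634 and 1514 in the oculomotor nucleus of 10-week mutants, 1059.6, 1333 and 1562 in that of 6-week mutants and 1485, 1257 and 1468 in that of controls. Against these, 1417441_at had 899, 798 and 779 in the spinal cord of 10-week mutants, 872, 899 and 804 in that of 6-week mutants and 1097 and 1009.9 in that of controls. Only the lowest 6-week oculomotor array fell within the spinal cord range. The log2 fold change was 0.59 ± 0.13 in mutants of 6 weeks and 0.79 ± 0.13 in mutants of 10 weeks, both called, and 0.40 ± 0.15 in controls, not called (adjusted p = 0.0786 in limma). The mean of 0.59 ± 0.08 (adjusted p = 8.35e-06) kept its call in all 26 alternatives. Of the midbrain markers, Th, the first enzyme of dopamine synthesis, was higher by 2.77 ± 0.08 and Slc6a4, the serotonin transporter, by 5.34 ± 0.10 in the same contrast, and 3 of 3 tested were called higher. The part of these neurons in the Dnajc12 difference was not tested.

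Dnajc5 encodes cysteine string protein, the DnaJ of synaptic vesicles that keeps the release machinery folded, and 4 of its 5 probe sets were called higher in the oculomotor nucleus. 1436179_a_at of Dnajc5 had signals of 2598, 2249 and 2746 in the oculomotor nucleus of 10-week mutants, 2388, 2353 and 2226 in that of 6-week mutants and 2801, 2577 and 2877 in that of controls. Against these, 1436179_a_at had 1832, 1948 and 2271 in the spinal cord of 10-week mutants, 1738, 1953 and 2199.6 in that of 6-week mutants and 1957 and 2295 in that of controls. Of the spinal cord arrays only 10-week mutant replicate 3 and control replicate 3 reached into the oculomotor range. 1448850_a_at of Dnajc5 had signals of 2866, 2577 and 2937 in the oculomotor nucleus of 10-week mutants, 2876, 2658 and 2614 in that of 6-week mutants and 2551, 2802 and 2794 in that of controls. Against these, 1448850_a_at had 2307, 2379.8 and 2436 in the spinal cord of 10-week mutants, 1977, 2403 and 1899.8 in that of 6-week mutants and 2521 and 2370.2 in that of controls. Here the regions did not overlap. 1448851_a_at of Dnajc5 had signals of 1127, 1060.3 and 1229 in the oculomotor nucleus of 10-week mutants, 1372, 1034 and 999.8 in that of 6-week mutants and 1089.6, 1314 and 1414 in that of controls. Against these, 1448851_a_at had 1038, 929 and 942 in the spinal cord of 10-week mutants, 904, 958 and 856 in that of 6-week mutants and 935 and 1098 in that of controls. On this probe set they overlapped slightly. The mean log2 fold changes were 0.31 ± 0.06, 0.25 ± 0.06 and 0.28 ± 0.07 (adjusted p = 7.76e-04, 0.00136 and 0.00536 in limma), with 0.22 ± 0.07 for the fourth called probe set and 0.04 ± 0.13 for the fifth, which was not called. With all 18 arrays the first of these 3 had an adjusted p of 0.125, the second 0.282 and the third 0.0580. Dnajc13, which acts on endosomes, had 0.09 ± 0.07.

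Of the remaining DnaJ C proteins outside the ER and mitochondria, 3 genes were called in the mean. Dnajc27, a small GTPase with a J domain, was higher on both probe sets (0.21 ± 0.07 and 0.20 ± 0.07), Dnajc28 on 1 of 2 (0.26 ± 0.09 and 0.12 ± 0.08), and Dnajc21, needed to mature ribosomes, was lower (-0.18 ± 0.07, adjusted p = 0.0431 in limma). Dnajc7, which bridges Hsp70 and Hsp90 and carries rare variants in people with ALS, had 0.05 ± 0.05, and its genotype values were 0.08 ± 0.09 in the oculomotor nucleus and 0.04 ± 0.10 in spinal cord. Dnajc2, a DnaJ of ribosomes, had 0.21 ± 0.08 and 0.08 ± 0.13. The nuclear proteins Dnajc8, a splicing factor, and Dnajc9, a histone chaperone, stood at -0.04 ± 0.05 and 0.04 ± 0.07, and Dnajc4 at -0.04 ± 0.07.

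In the ER, the Hsp70 protein Hspa5 (BiP) did not differ by a called amount in any comparison, and the members called were split between higher and lower. 1416064_a_at of Hspa5 had signals of 6414, 6139 and 5794 in the oculomotor nucleus of 10-week mutants, 4816, 7455 and 6773 in that of 6-week mutants and 5548, 4218 and 5246 in that of controls. Against these, 1416064_a_at had 4367, 6659.5 and 5308 in the spinal cord of 10-week mutants, 4601, 7216 and 6204 in that of 6-week mutants and 4430.2 and 4453 in that of controls. The regions overlapped widely, and control oculomotor replicate 2 was the lowest of all 17 arrays. 1427464_s_at of Hspa5 had signals of 2090.1, 1712 and 1908 in the oculomotor nucleus of 10-week mutants, 1794, 2024 and 1919.6 in that of 6-week mutants and 2148, 1335 and 1893 in that of controls. Against these, 1427464_s_at had 975, 1614 and 1685 in the spinal cord of 10-week mutants, 1751, 2097 and 1837 in that of 6-week mutants and 1344 and 1745 in that of controls. Here too the regions overlapped, and 10-week mutant spinal cord replicate 1 was the lowest array. The mean regional log2 fold changes of Hspa5 were 0.14 ± 0.10 and 0.22 ± 0.11 (adjusted p = 0.297 and 0.121 in limma). Dnajb11, the DnaJ protein that hands secreted proteins to Hspa5, was lower in the oculomotor nucleus. 1423151_at of Dnajb11 had signals of 467, 410.5 and 332 in the oculomotor nucleus of 10-week mutants, 697, 628 and 702 in that of 6-week mutants and 532, 409.7 and 435 in that of controls. Against these, 1423151_at had 510.1, 522 and 542 in the spinal cord of 10-week mutants, 601, 861 and 572 in that of 6-week mutants and 608 and 624 in that of controls. At 10 weeks the oculomotor signals lay below those of spinal cord in mutants and in controls, without overlap, while at 6 weeks the regions overlapped. The regional log2 fold changes were 0.02 ± 0.14 in mutants of 6 weeks, -0.41 ± 0.16 in controls and -0.37 ± 0.14 in mutants of 10 weeks, with none called alone. Their mean of -0.26 ± 0.09 was called (adjusted p = 0.0260) and lost its call in 7 of 26 alternatives, over all of which adjusted p ran from 0.0142 to 0.0923.

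Hsp90b1, the Hsp90 of the ER, was called higher on 1 of 2 probe sets (0.24 ± 0.08 and 0.15 ± 0.08). In mutants of 10 weeks 1415889_a_at read 2009.5, 1941 and 1982 in the oculomotor nucleus, against 1136, 1505 and 1622 in spinal cord, without overlap (0.49 ± 0.13, adjusted p = 0.0158 in limma). Dnajc3, a DnaJ of the ER lumen that also holds back the kinase Eif2ak3, had 1 of 4 tested probe sets called lower in the mean (1433887_at, -0.21 ± 0.06), and the others had -0.19 ± 0.08, -0.19 ± 0.08 and -0.07 ± 0.07. The 1433887_at difference was largest at 6 weeks, with 564, 705 and 582 in the oculomotor nucleus against 916, 946 and 862 in spinal cord (-0.55 ± 0.11, adjusted p = 0.00105). Those 2 groups did not overlap.

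Dnajc14, an ER membrane DnaJ that aids export of receptors, was lower on 1 of 2 tested probe sets. 1437546_at of Dnajc14 had signals of 282, 341 and 337 in the oculomotor nucleus of 10-week mutants, 278, 262 and 273 in that of 6-week mutants and 487, 278 and 469 in that of controls. Against these, 1437546_at had 404, 348 and 329 in the spinal cord of 10-week mutants, 493, 381 and 448 in that of 6-week mutants and 451 and 475 in that of controls. All 6-week oculomotor arrays lay below all 6-week spinal cord arrays, and the 10-week groups overlapped. The log2 fold change at 6 weeks was -0.65 ± 0.16, and the mean was -0.34 ± 0.10 (adjusted p = 0.0108 in limma), beside -0.05 ± 0.06 for 1426553_at. Dnajb9, which helps clear misfolded ER proteins, stood at 0.01 ± 0.06, and Dnajc1, whose J domain stimulates Hspa5, at 0.08 ± 0.09. Dnajc10, a disulfide reductase, had 0.00 ± 0.09, 0.07 ± 0.05 and 0.03 ± 0.08, and Dnajb12 and both probe sets of Dnajc18, all of the ER membrane, had 0.22 ± 0.09, 0.11 ± 0.11 and 0.03 ± 0.11. Within single conditions Dnajb12 was called higher in mutants of 6 weeks (0.52 ± 0.15) and Dnajc10 1426905_a_at in mutants of 10 weeks (0.27 ± 0.08).

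**Figure D4:**
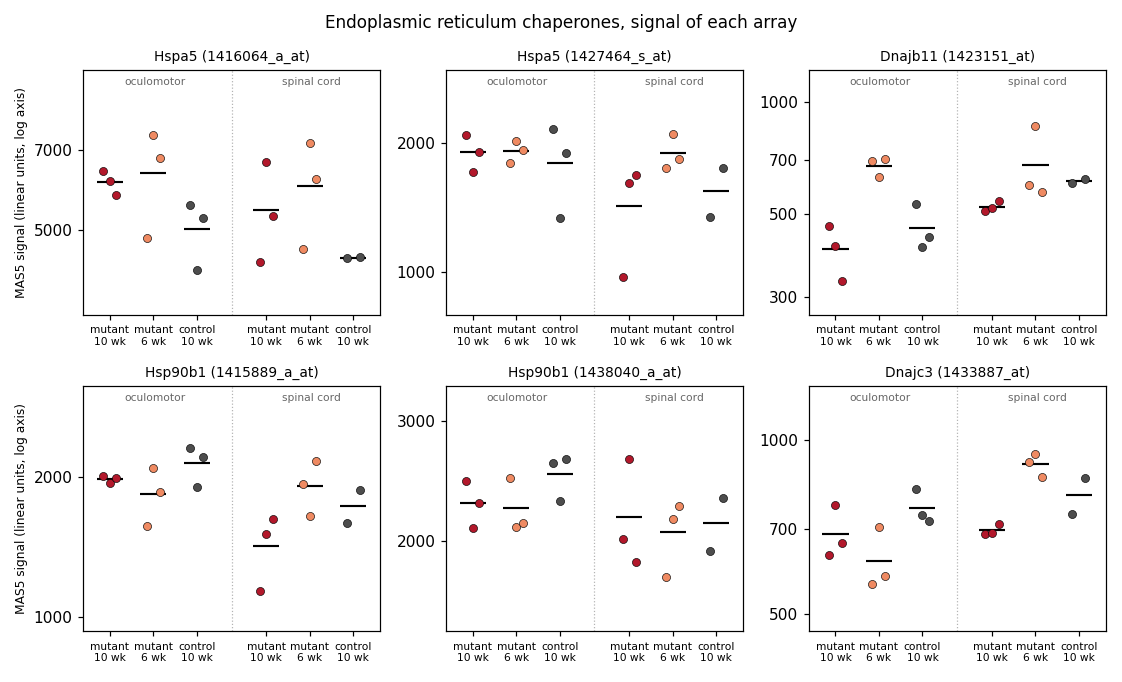
MAS5 signal of each array (vertical axes, log scale) for Hspa5, Dnajb11, Hsp90b1 and Dnajc3 of the ER; each point is an array, and bars are group means of the signals. Dnajb11 is lower in the oculomotor nucleus at 10 weeks than at 6 weeks (467, 411 and 332 against 697, 628 and 702 in mutants), and the 2 Hspa5 panels show overlapping regions.

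The ER stress element, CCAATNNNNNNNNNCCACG on either strand, stood in the promoter windows of 3 of the 49 member genes with one (6.12%), Dnajc3, Hsp90b1 and Hspa5, beside 0.137% of all genes. These sequences are shown because the 3 genes carry the same element while only 2 of them had called probe sets. Capitals mark the element, which reads on the opposite strand in Hsp90b1.
Hspa5: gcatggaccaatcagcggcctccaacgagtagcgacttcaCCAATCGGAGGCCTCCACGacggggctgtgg
Hsp90b1: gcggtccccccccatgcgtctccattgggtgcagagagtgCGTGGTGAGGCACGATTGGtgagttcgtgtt
Dnajc3: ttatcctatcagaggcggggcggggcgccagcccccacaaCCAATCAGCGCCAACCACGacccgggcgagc
The windows are chr2:34771985-34772055 (plus strand) for Hspa5, chr10:86705521-86705591 (minus) for Hsp90b1 and chr14:118937787-118937857 (plus) for Dnajc3 in GRCm38.p6, and the elements begin at bases -65, -107 and -105 from the start of transcription. The Hsp90b1 window held 2 matches, and the other windows 1 each.

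In mitochondria 1 of 12 tested probe sets was called in the mean, that of Dnajc30, which binds the ATP synthase (0.17 ± 0.06, adjusted p = 0.0362 in limma). Hspa9, the Hsp70 that pulls proteins into the matrix, had 0.09 ± 0.09, 0.07 ± 0.06 and 0.23 ± 0.11. The chaperonin genes had 0.08 ± 0.04 for Hspd1 and 0.07 ± 0.07 and 0.22 ± 0.09 for Hspe1. Dnaja3, the DnaJ of the matrix, had 0.15 ± 0.07 and 0.18 ± 0.08, and Dnajc15, of the import motor, -0.15 ± 0.07. Dnajc11, of the inner membrane scaffold, had 0.00 ± 0.07 and 0.14 ± 0.06. In mutants of 6 weeks Dnajc11 1433881_at was called higher in the oculomotor nucleus (0.41 ± 0.11), as was Dnaja3 1420629_a_at (0.39 ± 0.12). The median over the 12 was 0.12.

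Several probe sets of 1 gene gave partly different answers. Of the 29 genes with more than 1 tested probe set, 7 had all of them called in the mean regional difference, 10 had some and 12 had none, and 0 had calls in opposite directions. The 27 untested probe sets had signals from 1.2 to 202.9 (median 46.8). They left 11 genes with no tested probe set, namely Dnajb3, Dnajb7, Dnajb13, Dnajc5b, Dnajc17, Dnajc24, Hspa1l, Hspa12b, Hspb2, Hspb3 and Hspb7.

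Set between mutants and controls of 10 weeks in the oculomotor nucleus, 4 members were called, all higher in mutants: Hspa4, Hsp90aa1, Dnajc3 and Dnajc2. That is 4.26% of the members, beside 1.47% of all tested probe sets (1.04% higher and 0.435% lower), and each gene was called on 1 probe set only. The median over the members was 0.02, beside -0.01 over all tested probe sets. Hspa4 1416147_at had 1017, 715 and 932 in mutants and 521, 347 and 479.8 in controls, a log2 fold change of 0.95 ± 0.18 (adjusted p = 0.0116 in limma). The groups did not overlap, and the 6-week mutants, at 709, 734 and 824, lay above the controls too. The other Hspa4 probe sets, 1416146_at and 1435194_at, had 0.41 ± 0.15 and -0.18 ± 0.22 and were not called.

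Hsp90aa1 1437497_a_at had 9063, 7743 and 8176 in mutants and 5941, 5414 and 5937 in controls (0.53 ± 0.10, adjusted p = 0.0154 in limma). All mutant arrays lay above all control arrays, and the other 2 probe sets had 0.30 ± 0.12 and 0.31 ± 0.13. Dnajc3 1449372_at had 443, 439.9 and 425 in mutants and 293, 267 and 330.1 in controls (0.52 ± 0.11, adjusted p = 0.0200), again without overlap. Its other probe sets lay slightly below 0, at -0.11 ± 0.13, -0.11 ± 0.13 and -0.15 ± 0.11. Dnajc2 1448794_s_at had 437, 384 and 375 in mutants and 241, 224 and 276 in controls (0.64 ± 0.14, adjusted p = 0.0265), and 1417657_s_at had -0.17 ± 0.21. Which part of the transcript each probe set covers was not used here, so the disagreement within genes was not traced.

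Without overlap between the groups, 12 members were higher and 9 lower in mutants, beside 11.7% and 12.3% of all tested probe sets. By the 2-fold rule 0 members were called, beside 0.287% higher and 0.0516% lower. The 4 calls were sensitive to single arrays. The count was 0 without control oculomotor replicate 2 or mutant replicate 1, 1 without control replicate 1 or mutant replicate 3, and 2 without mutant replicate 2. It was 1 without the 2 arrays with high pituitary hormone signals and 0 with all 18 arrays. Quantile normalization called 3 members and 151 of all tested probe sets, beside 4 and 200 in the main fit. The background of the other runs is not given here. Across the alternatives the log2 fold changes ran from 0.78 to 1.15 for Hspa4, from 0.38 to 0.60 for Hsp90aa1, from 0.44 to 0.60 for Dnajc3 and from 0.52 to 0.74 for Dnajc2, and none changed sign. The 3′ to 5′ signal ratio of the Gapdh control probes was 0.786 to 0.832 in mutants and 0.741 to 0.786 in controls, and that of actin 1.15 to 1.23 and 1.11 to 1.22. Summed oligodendrocyte markers were 40772 to 45525 in mutants and 31948 to 35026 in controls (1 of 7 called higher), and microglia markers 3893 to 3964 and 3432 to 3557 (1 of 5 called higher). Midbrain markers summed to 4231 to 5211 in mutants and 3788 to 4049 in controls, and 1 of 3 tested, Slc6a4, was called higher (0.82 ± 0.17). The part of these in the 4 results was not tested.

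**Figure D5:**
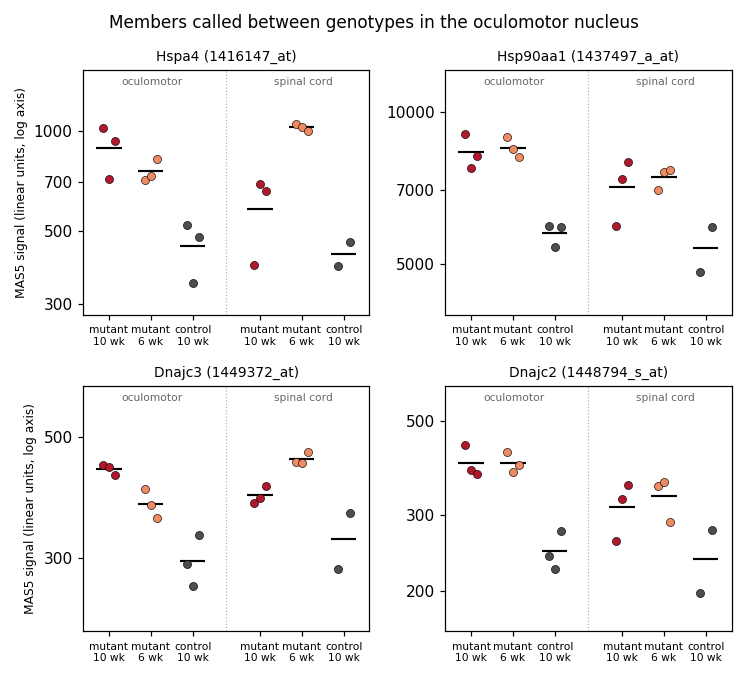
MAS5 signal of each array (vertical axes, log scale) for the 4 probe sets called in the oculomotor nucleus between mutants and controls of 10 weeks; each point is an array, and bars are group means of the signals. In each panel the 3 oculomotor arrays of 10-week mutants lie above the 3 of controls.

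In spinal cord no member was called between genotypes by limma, beside 0.0221% of all tested probe sets (0.0147% higher and 0.00737% lower), and 15 of the 94 (16%) had an unadjusted p under 0.05, beside 11.7% of all tested probe sets. Without overlap 14 members were higher and 13 lower in mutants, beside 14.3% and 13.3% of all tested probe sets, and by the 2-fold rule 0 were called, beside 0.14% and 0.0589%. The 3 members with the smallest p were Dnajc3 1419163_s_at (-0.57 ± 0.15, adjusted p = 0.164), Hsp90aa1 1437497_a_at (0.40 ± 0.12, adjusted p = 0.214) and Dnajc10 1426905_a_at (-0.26 ± 0.09, adjusted p = 0.294). For Hsp90aa1 the signals were 5957, 7368 and 7960.3 in mutants and 4827 and 5923 in controls, and the lowest mutant array, replicate 1, lay just above the higher control array, replicate 3. Hspa4 1416147_at had 395, 693 and 658 in mutants and 391 and 462 in controls (0.39 ± 0.20), which overlapped. The 2 control arrays limit this comparison, and 1 member was called without mutant replicate 1.

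The genotype difference itself was compared between regions, and no member was called by limma, as was 0% of all tested probe sets. At an unadjusted p under 0.05 there were 7 of 94 (7.45%), beside 6.15% of all tested probe sets. The 3 with the smallest p were Dnajc5 1460498_a_at (-0.82 ± 0.31), Dnajc10 1426905_a_at (0.31 ± 0.12) and Dnajc2 1417657_s_at (-0.79 ± 0.31), each with an adjusted p of 0.747. For Hspa4 1416147_at the difference was 0.56 ± 0.27 and for Hsp90aa1 1437497_a_at 0.13 ± 0.15, so a genotype effect of these genes in the oculomotor nucleus alone was not shown.

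In mutants, 2 members were called in spinal cord between 10 and 6 weeks, which is 2.13% beside 2.76% of all tested probe sets (1.78% higher and 0.972% lower). Hspa4 1416147_at had 395, 693 and 658 at 10 weeks and 1049, 1030.5 and 999.7 at 6 weeks (-0.83 ± 0.18, adjusted p = 0.0228 in limma). The ages did not overlap, and the 6-week signals were close to each other. Its other probe sets had -0.08 ± 0.15 and -0.29 ± 0.22. Hspa8 1431182_at had 171, 162 and 221 at 10 weeks and 86.4, 118 and 94 at 6 weeks (0.75 ± 0.18, adjusted p = 0.0340), also without overlap, while the other Hspa8 probe sets had -0.17 ± 0.15, 0.26 ± 0.10 and -0.12 ± 0.10. The next smallest adjusted p was 0.0507, for Dnajc5 1460498_a_at (0.79 ± 0.21).

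Without overlap 11 members were higher and 13 lower at 10 weeks, beside 13.4% and 10.2% of all tested probe sets, and by the 2-fold rule 0 were called, beside 0.199% and 0.0737%. Neither call was stable. Without mutant 6-week replicate 1 or 2 or mutant 10-week replicate 1 the count was 0, without 6-week replicate 3 or 10-week replicate 3 it was 1, and with all 18 arrays 0. Median centring gave 4 calls, 1 higher and 3 lower, and quantile normalization 1, lower. Over all tested probe sets quantile normalization called 305, beside 374 in the main fit, and the other runs stand here without that background. Of the markers of meninges and fibroblasts 4 of 6 were lower at 10 weeks (sums 3792 to 5293, against 7184 to 7656 at 6 weeks), and their part in these results was not tested. No control of 6 weeks was analysed here, so a change that is particular to mutants cannot be told apart from one of age.

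In the oculomotor nucleus no member was called between 10 and 6 weeks by limma, beside 0.0221% of all tested probe sets, all of them higher, and 9 of 94 (9.57%) had an unadjusted p under 0.05, beside 8.82%. Dnajb11 came nearest: its signals were 467, 410.5 and 332 at 10 weeks and 697, 628 and 702 at 6 weeks. The 2 ages did not overlap, as for 10 members higher and 6 lower at 10 weeks, beside 7.2% and 7% of all tested probe sets. By the 2-fold rule 0 members were called, beside 0.0516% and 0.0221%. The log2 fold change of -0.72 ± 0.14 had an adjusted p of 0.0776 in limma. That p ran from 0.0571 to 0.9999 over the alternatives, which include the run with control spinal cord replicate 1 put back. Other measures separated these ages as well: the Gapdh 3′ to 5′ ratio was 0.786 to 0.832 at 10 weeks and 0.849 to 0.866 at 6 weeks, oligodendrocyte markers summed to 40772 to 45525 and 54729 to 55888, and Slc6a4 was called higher at 10 weeks (1.26 ± 0.17). Their part in these values was not tested. Next were Hspa8 1455789_x_at (-0.31 ± 0.10, adjusted p = 0.362) and Dnajc11 1433881_at (-0.31 ± 0.11, adjusted p = 0.363). In spinal cord Dnajb11 had -0.33 ± 0.14, and the difference between the regions in its change with age was -0.39 ± 0.20 (adjusted p = 0.360).

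The change with age was set between the regions for all members, and 0 were called by limma, beside 0.368% of all tested probe sets (0.14% higher and 0.228% lower), and 13 (13.8%) had an unadjusted p under 0.05, beside 16.1%. The smallest p was that of Hspa4 1416147_at, at 1.05 ± 0.25 (adjusted p = 0.0811). Its oculomotor value was 0.21 ± 0.18 and its spinal cord value -0.83 ± 0.18. Dnajc3 1433887_at had 0.52 ± 0.15 (adjusted p = 0.121) and Hspa8 1420623_x_at -0.53 ± 0.14 (adjusted p = 0.108).

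Genes that work with these chaperones were read from lists, each gene by its brightest probe set. Of 25 tested genes of ER folding and quality control, 4 were called higher and 5 lower in the mean regional difference, with a median of 0.04. The ubiquitin ligase gene Syvn1 (0.37 ± 0.06) and the oxidase gene Ero1a (0.33 ± 0.06) were higher in the oculomotor nucleus, and Selenos (-0.31 ± 0.06), which helps to extract misfolded proteins, and the disulfide isomerase gene P4hb (-0.23 ± 0.05) were lower. Of 21 genes of the Hsf1 pathway and the cytosolic co-chaperones, 6 were higher and 3 lower (median 0.08), among them Sgta (0.33 ± 0.08), Stub1, the ligase that marks Hsp70 clients (0.20 ± 0.05), and Fkbp4 (0.20 ± 0.06) higher and the collagen chaperone gene Serpinh1 (-0.32 ± 0.08) lower. Of 12 genes of the TRiC chaperonin and prefoldin, Pfdn1 (0.28 ± 0.08) and Cct8 (0.26 ± 0.07) were higher and 0 lower (median 0.08).

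Of 11 tested sensors and targets of the unfolded protein response only Cebpb was called, lower in the oculomotor nucleus (-0.21 ± 0.08, adjusted p = 0.0490 in limma), with a median of -0.03 over the list. Of 12 genes of mitochondrial folding and proteolysis, the protease gene Clpp (0.21 ± 0.07) was higher and the mitochondrial Hsp90 gene Trap1 (-0.23 ± 0.07) lower. The shares of the 5 lists, from 9 of 21 for the Hsf1 pathway and co-chaperones to 1 of 11 for the unfolded protein response, stand beside 37.7% of all tested probe sets called in that contrast. Between genotypes 0 genes of the 5 lists were called in either region, beside 1.47% of all tested probe sets in the oculomotor nucleus and 0.0221% in spinal cord. Between 10 and 6 weeks in mutant spinal cord the ER isomerase gene Pdia4 (-0.72 ± 0.18) and Serpinh1 (-0.63 ± 0.14) were called lower, and in the oculomotor nucleus 0 were called. Beside these stand 2.76% of all tested probe sets called in spinal cord and 0.0221% in the oculomotor nucleus.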

How the data were processed

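RNA of each sample was hybridised to 1 array. The deposited values are MAS5 signal intensities on a linear scale, made by the authors with Affymetrix Microarray Suite 5.0, per the submitters' processing notes. Each was taken as log2(intensity + 25), with no further scaling. After 64 control probe sets were removed, the lowest 40% by mean log2 value were left out (limit 7.38), leaving 13575 of 22626. Gene names came from the array's annotation, where 20380 probe sets had 1 symbol, 691 several and 1555 none; 2 chaperone probe sets with several symbols were left out. Means of the 6 groups were fitted with limma 3.58.1 in R 4.3.3 (eBayes with a trend, 11 residual degrees of freedom), with Benjamini-Hochberg adjustment within each of 10 contrasts. In simulated data the fit recovered 96.2% of 2-fold and 44.6% of 1.41-fold changes for the regional difference in mutants of 6 weeks, and 64.4% and 5.4% for genotype by region. Of the simulated calls 4.74% and 7.43% were false. Each run changed 200 of the 13575 probe sets, and recovery depends on how many change, so these rates need not carry over to the data.

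Members, lists and compartments were chosen with earlier results of these data known. All members are accounted for. Signals of every array are given for Hspa5, Dnajb11, members called in genotype or age contrasts, and the 8 members with the smallest p in each direction of the mean regional difference, and also for Hspa1a, Hspa1b and Dnajb1, which were added for their spread between arrays. Where a genotype or age contrast called none, the 3 members with the smallest p are given, and of each other list up to 4 called genes. Alternatives were another offset, filter, normalization, centring, variance model, set of arrays, replicate block and call rule.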

Additional observations from a re-analysis of the deposited data

How the results depend on the processing

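Alternatives were run for the counts of calls and for 56 log2 fold changes of probe sets given under the naming rule. All were called in the main fit, save that of Dnajb11 with age in the oculomotor nucleus. No value of Hspa5 was among them, as none was called. None of the 56 reversed, which was likely from the start, since called values lie well away from 0. With all 18 arrays the members called numbered 3, 0, 2 and 9 for the regional difference in mutants of 6 weeks, controls, mutants of 10 weeks and their mean, and 0 both for genotype in the oculomotor nucleus and for age in mutant spinal cord. That run puts back control spinal cord replicate 1, and all groups share 1 estimate of the spread, so this array also enters contrasts without its group. For genotype in the oculomotor nucleus, Hspa4 1416147_at kept its log2 fold change of 0.95 in it, with an adjusted p of 0.494 in limma. The counts of lost calls given for single probe sets include that run. The cause of the lost calls was not tested. Without the 2 arrays with high pituitary hormone signals there were 5 in controls, 11 in mutants of 10 weeks and 1 for genotype in the oculomotor nucleus. Asking for every pairwise comparison in 1 direction and a ratio over 2-fold, a stricter rule by construction, gave 4 in each of the 3 regional comparisons, 0 for genotype in the oculomotor nucleus and 0 for age in spinal cord. For age in spinal cord, median centring gave 4, and quantile normalization, no filter and a fit to the arrays of that contrast alone gave 1 each. Leaving out 1 array at a time gave 14 to 18 calls in mutants of 6 weeks, 4 to 9 in controls, 9 to 20 in mutants of 10 weeks, 24 to 34 in the mean, 0 to 4 for genotype in the oculomotor nucleus, 0 to 1 for genotype in spinal cord, 0 to 2 for age in spinal cord, and 0 in the other contrasts. Whether replicate numbers pair the samples is not known. Deviations of same-numbered arrays correlated at -0.10 to 0.13 (median 0.02 over 40 pairs), and 6 pairs exceeded 0.1. Those of arrays with different numbers ran from -0.16 to 0.16 (median -0.02 over 80 pairs), and 2 exceeded 0.1. Most same-numbered pairs cross conditions, so these values cannot decide whether the 2 regions of a condition share animals by number. A fit with the replicate block called 19, 9, 19 and 36 members between regions, 4 for genotype in the oculomotor nucleus and 2 for age in spinal cord. Calls over all tested probe sets are not set beside these alternative counts, so a shift shared by all probe sets cannot be told from one of the members. Of 895 repeats of the counts for the gene lists, 813 stayed within 1.5 times the main count and 82 moved.

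With 3 arrays or fewer per group, small changes are measured with little power: between genotypes in spinal cord 23.4% of simulated 1.41-fold changes were recovered. That rate holds for 200 changed probe sets and need not carry over to the data. MAS5 signals near background limit the dim members, of which 27 were not tested. Probe sets of 1 gene often gave different calls, and near-identical copies such as Hspa1a and Hspa1b are reported as uncertain.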
